A study of Mus musculus with 24 samples.

Results

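The Myc, Max and Mxd network is a set of 9 genes, Myc, Mycn, Mycl, Max, Mxd1, Mxd3, Mxd4, Mxi1 and Mnt. They were chosen by symbol and not by a rule on measured values, though with earlier results of these data known. They are 9 of the 24421 genes counted in 24 RNA-seq libraries of mouse BM cells. All 9 passed the filter on low counts in every fit, with between 14 reads (Mycn) and 4325 reads (Myc) per library.

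Proteins of this network are basic helix-loop-helix leucine zipper factors that bind the E-box, CACGTG, as pairs with Max. Myc, N-Myc and L-Myc paired with Max activate genes of ribosome biogenesis, nucleotide synthesis and cell growth, whereas the Mxd proteins, Mxi1 and Mnt compete for Max and bring Sin3 and histone deacetylases to the same sites. Mxd1 and Mxd4 are usually linked to cells that leave the cycle, Mxd3 to cells in S phase, and Mnt is present in most cells. In early B cells, Myc and N-Myc are known for the growth of pro-B and pre-B cells under IL-7.

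The libraries came from Lin-IL-7R+ CLPs and from B220+IgM-IL-7R+ cells, called B cell progenitors, both sorted as CD45.2+ donor cells, with 1 library of each population from each of 12 mice and 3 mice per genotype. The 4 genotypes were Plcg1+/+Plcg2+/+ (wild-type), Plcg1-/-Plcg2+/+, Plcg1+/+Plcg2-/- and Plcg1-/-Plcg2-/- (double-deficient), where Plcg1 and Plcg2 encode the phospholipases PLCγ1 and PLCγ2. All donors, the wild-type ones included, carried YFP and MxCre, a Cre recombinase under an interferon-inducible promoter, on a mixed 129xC57BL/6 background and received poly(I-C), which deletes the floxed Plcg1 alleles, while Plcg2 was missing from the germline. The donor BM was transplanted into lethally irradiated CD45.1+ wild-type mice, so that the non-haematopoietic cells of every mouse were wild-type. The number of donors per genotype is not stated, so p-values measure the spread between recipients.

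Each CLP library held between 4232345 and 33219995 reads on genes, and each library of B cell progenitors between 1479582 and 25057223. The share of reads on no feature was 17.9% to 45.2% in CLPs and 59.9% to 87.3% in B cell progenitors, with no overlap. The share of reads listed as ambiguous was 1.06% to 1.44% in CLPs and 0.110% to 0.420% in B cell progenitors, also with no overlap. Plcg2 was at 72.1 to 138 normalized CPM (reads of a gene relative to the library size, scaled by edgeR's TMM factor) in Plcg2-/- libraries and at 183 to 282 in the others, while Plcg1, counted over the whole gene, was at 56.1 to 185 in Plcg1-/- libraries and at 77.4 to 113 in Plcg1+/+ ones and so does not check the labels. Xist was at 1294 normalized CPM or more in the 12 Plcg1-/- libraries and at 743 or less in the other 12, and Ddx3y was at 19.1 or less against 98.2 or more, so that Plcg1 genotype and sex-linked transcripts cannot be told apart. B lineage markers (8 of 8 genes) were detected in every CLP library, at a summed 818 to 6143 normalized CPM against 1819 to 6544 in B cell progenitors, and 7 granulocyte and monocyte markers (Mpo, Elane, S100a8, S100a9, Lyz2, Csf1r and Itgam) summed to between 1403 and 8655 in the 24 libraries. All 6 CLP markers were detected in every library as well, and 3 of 5 erythroid markers were at 0 in every library.

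Promoters of 8 of the 9 genes were found in RefSeq (GRCm38.p6), as windows of 250 bases before and 50 bases after each start site. The letters CACGTG, which read the same on both strands, were in the windows of Mxd4, Mnt and Max, and in 2349 of 32851 promoters of that length (7.15%). In Max they begin 3 bases before the start site and run across it. The 250 bases upstream of Mxd4 (chr5:34187711-34187960, minus strand) and of Mnt (chr11:74830674-74830923, plus strand) are shown because they hold the letters that the network's own pairs bind, which are in capitals.

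Mxd4: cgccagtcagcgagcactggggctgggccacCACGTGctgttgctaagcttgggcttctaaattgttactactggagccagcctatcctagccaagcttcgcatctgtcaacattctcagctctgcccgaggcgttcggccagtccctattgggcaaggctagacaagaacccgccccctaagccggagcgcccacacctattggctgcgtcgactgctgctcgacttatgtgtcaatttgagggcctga

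Mnt: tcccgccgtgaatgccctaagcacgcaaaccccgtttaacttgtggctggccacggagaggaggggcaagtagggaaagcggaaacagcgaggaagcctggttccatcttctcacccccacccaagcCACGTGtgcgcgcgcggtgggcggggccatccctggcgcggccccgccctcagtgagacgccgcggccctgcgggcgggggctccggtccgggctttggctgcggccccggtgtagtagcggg

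Per kb of exon, Max and Myc had the highest median levels of the network in both populations and Mycn and Mycl the lowest. In CLPs the median level per kb was 58.1 normalized CPM for Myc, 56.6 for Max, 27.9 for Mxd3, 19.9 for Mxi1, 15.4 for Mnt, 15.1 for Mxd1, 11.98 for Mxd4, 4.74 for Mycl and 3.12 for Mycn. Every pair of neighbours in this order had overlapping ranges, and Myc exceeded Max in 6 of 12 libraries. In B cell progenitors the median level per kb was 54.3 for Max, 43.7 for Myc, 41.4 for Mxd3, 20.6 for Mxi1, 11.5 for Mxd4, 10.3 for Mnt, 9.14 for Mxd1, 3.20 for Mycl and 2.94 for Mycn. There, Mxi1 lay above Mxd4 and Mxd1 above Mycl with no overlap over 12 libraries, and all other neighbours overlapped, Myc exceeding Mxd3 in 6 of 12 libraries. Myc made up 75.2% to 91.4% of the summed level per kb of Myc, Mycn and Mycl in the 24 libraries.

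**Figure D1:**
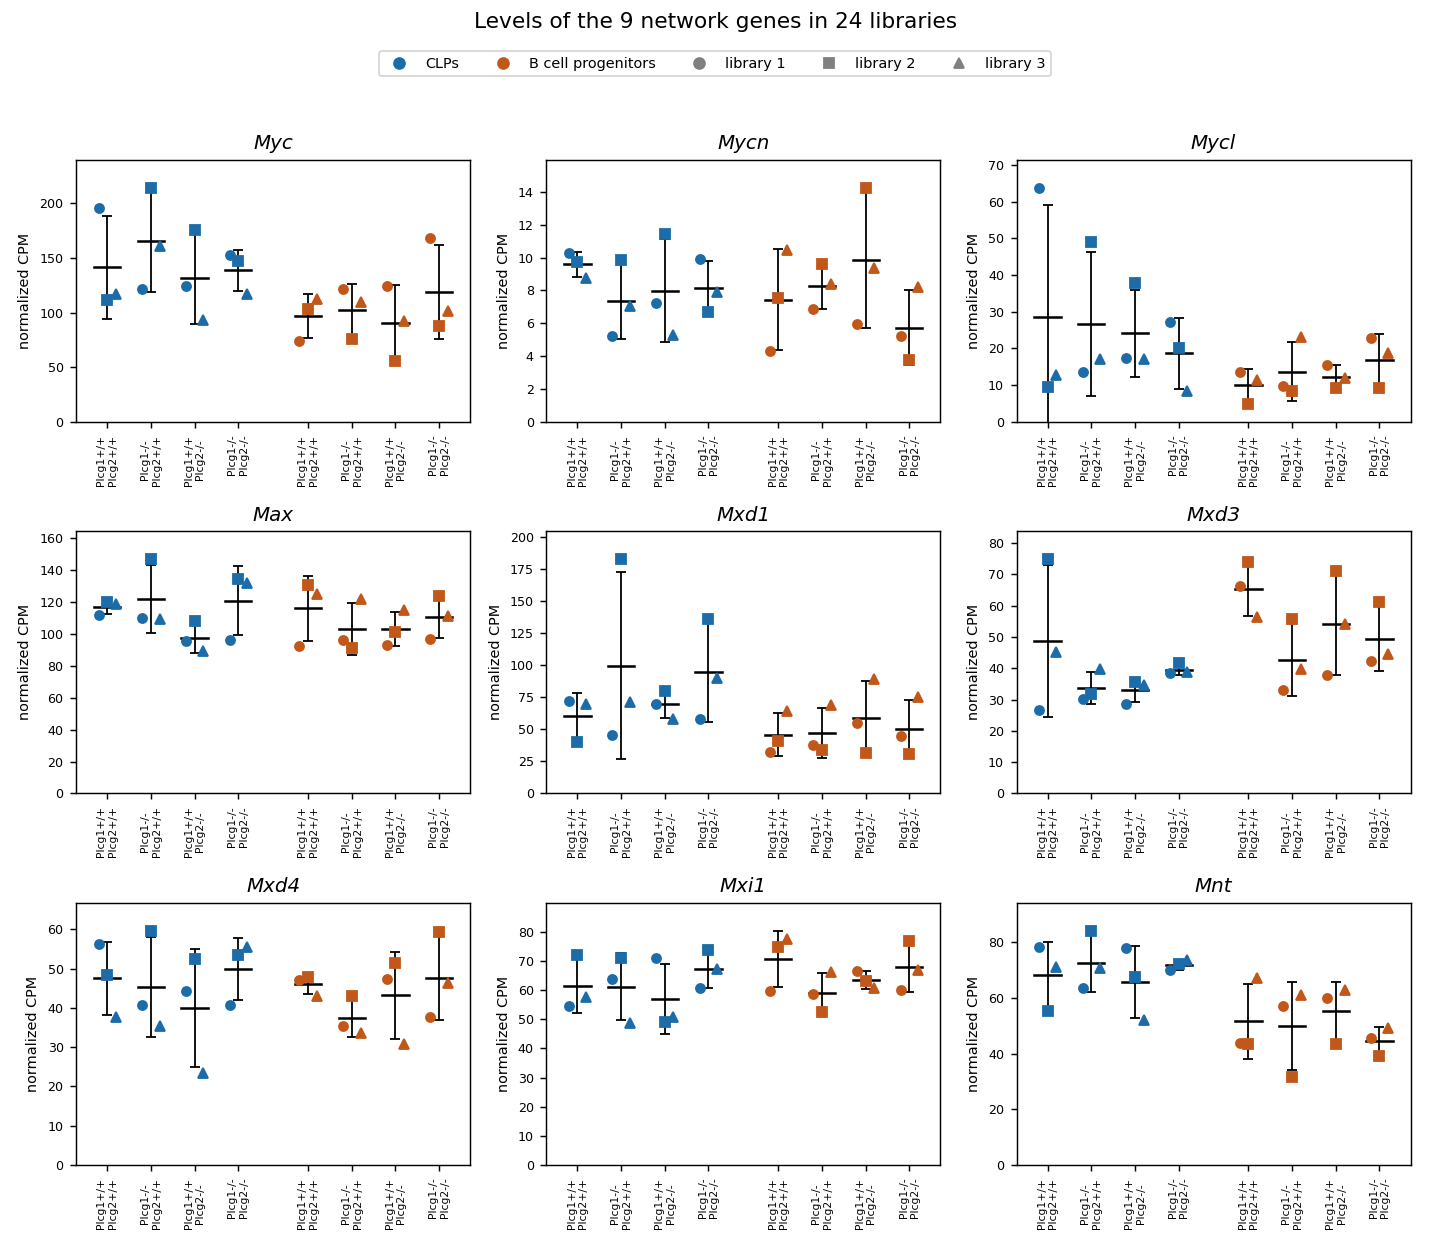
Normalized CPM of each of the 9 genes (y axis, from 0) in CLPs (blue) and B cell progenitors (orange) by genotype. Symbols are single libraries by their replicate number, the horizontal bar is the mean of 3 and the vertical bar the SD. Mycl in wild-type CLPs spans 9.503 to 63.7, while Max stays between 89.2 and 147 in all 24 libraries.

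Myc (chr15:61985341-61990361, GRCm38), the main activator of the network, did not separate the genotypes in either population. In CLPs it was at 196, 112 and 117 normalized CPM in the 3 wild-type libraries, at 122, 214 and 161 in Plcg1-/-Plcg2+/+, at 125, 176 and 93.4 in Plcg1+/+Plcg2-/- and at 152, 147 and 117 in the double-deficient ones. In B cell progenitors it was at 74.5, 103 and 113 in wild-type, at 122, 75.9 and 109.8 in Plcg1-/-Plcg2+/+, at 124, 56.1 and 92.7 in Plcg1+/+Plcg2-/- and at 168, 88.0 and 101 in double-deficient libraries. In both populations the range of each mutant genotype overlapped that of wild-type, and the highest wild-type CLP library stood well above the other two. The log2 fold change of the double-deficient against the wild-type genotype was -0.04 (SE 0.28, 95% interval -0.67 to 0.58) in CLPs and 0.29 (SE 0.31, interval -0.38 to 0.96) in B cell progenitors. Myc thus was not called, and the intervals allow a fall or a rise of more than 0.5 in CLPs. Pvt1, the non-coding gene next to Myc, had a log2 fold change of 0.16 in CLPs and 0.32 in B cell progenitors and was not called.

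Mycl, which encodes L-Myc, spread widely among CLPs, with a ratio of highest to lowest library of 6.71 in wild-type and 2.21 to 3.60 in the mutant genotypes. In wild-type CLPs it was at 63.7, 9.503 and 12.9 normalized CPM, in Plcg1-/-Plcg2+/+ at 13.6, 49.1 and 17.1, in Plcg1+/+Plcg2-/- at 17.5, 37.9 and 17.2 and in double-deficient CLPs at 27.3, 20.2 and 8.42. In each of the first 3 genotypes 1 library lay at more than the level of the other two together. In B cell progenitors Mycl was at 13.6, 4.83 and 11.4 in wild-type and at 22.9, 9.31 and 18.7 in double-deficient libraries, which overlap. The log2 fold change between them was -0.66 (interval -2.26 to 0.94) in CLPs and 0.74 (interval -0.29 to 1.76) in B cell progenitors, and neither was called. Without the wild-type CLP library at 63.7, the change in CLPs was 0.69. That library also had the lowest summed B lineage markers of all CLP libraries, 818 against 4855 and 3736 in the other wild-type ones. Its summed plasmacytoid dendritic cell markers were the highest of all CLP libraries (650, against 124 and 329 in the other wild-type ones). The part of cell mixture in its level of Mycl, and in its Myc of 196, was not tested. Mycn, which encodes N-Myc, was at 5.23 to 11.4 normalized CPM in CLPs and at 3.78 to 14.2 in B cell progenitors, with log2 fold changes of -0.24 and -0.39 for the double-deficient genotype.

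Max (chr12:76937269-76962323), the shared partner, varied little between libraries, as did Mxi1. Max was at 89.2 to 147 normalized CPM in CLPs and at 91.4 to 130.5 in B cell progenitors, a ratio of highest to lowest library of 1.64 and 1.43. Mxi1, a repressor, was at 48.7 to 73.8 in CLPs and at 52.5 to 77.7 in B cell progenitors, a ratio of 1.51 and 1.48. The double-deficient against wild-type interval for Max ran from -0.30 to 0.37 on the log2 scale in CLPs and from -0.42 to 0.29 in B cell progenitors, so that a change of 0.5 lay outside both. In CLPs all 3 Plcg1+/+Plcg2-/- libraries (95.6, 108 and 89.2) were below all 3 wild-type ones (112, 119.9 and 118.9) in Max, with a log2 fold change of -0.25 (SE 0.15, adjusted p = 0.939 by edgeR). It was the 1 member of 9 without overlap in this comparison, where 7.75% of all genes had none. In double-deficient against Plcg1+/+Plcg2-/- CLPs it was Mxd3, higher in the former by 0.25 on the log2 scale, where 14.4% of all genes had no overlap. Over the 12 CLP libraries, Max had a Pearson r of -0.64 (Spearman rho -0.61) with the share of reads on no feature. That share was largest, at 45.2%, in the Plcg1+/+Plcg2-/- library with Max at 89.2. Its part in the level of Max was not tested.

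Mxd3 (chr13:55325170-55329900), the repressor linked to S phase, was the member with the lowest unadjusted p among the comparisons of genotypes. In B cell progenitors it was at 66.3, 73.9 and 56.3 normalized CPM in wild-type, at 33.0, 55.8 and 39.7 in Plcg1-/-Plcg2+/+, at 37.9, 71.0 and 54.0 in Plcg1+/+Plcg2-/- and at 42.3, 61.3 and 44.6 in double-deficient libraries. The Plcg1-/-Plcg2+/+ libraries were all below the wild-type ones, by a narrow gap, and those of the other 2 mutant genotypes overlapped wild-type. The log2 fold change of Plcg1-/-Plcg2+/+ against wild-type was -0.59 (SE 0.25, interval -1.14 to -0.05), with an unadjusted p of 0.036 and an adjusted p of 0.467 by edgeR, and so was not called. Mxd3 and Mxd4 were the 2 members without overlap in this comparison, where 19.3% of all genes had none. The double-deficient genotype had a log2 fold change of -0.40 (SE 0.25) for Mxd3 in B cell progenitors and -0.30 (SE 0.29) in CLPs, neither of them called. In wild-type CLPs Mxd3 was at 26.6, 74.8 and 45.1, a wider range than that of 28.7 to 41.6 over the 9 mutant CLP libraries. Of the 1327 exonic bases of Mxd3, 105 lie in exons of Prelid1 on the opposite strand, and reads there cannot be told apart without strand.

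The remaining repressors also overlapped between double-deficient and wild-type libraries in both populations. Mxd1 was at 71.9, 40.2 and 70.1 normalized CPM in wild-type CLPs and at 58.0, 136 and 90.1 in double-deficient ones, with 182 in 1 Plcg1-/-Plcg2+/+ library. Its log2 fold change was 0.61 (SE 0.45) in CLPs and 0.13 (SE 0.42) in B cell progenitors. Mxd4 had a log2 fold change of 0.06 in each population, with SE of 0.28 in CLPs and 0.20 in B cell progenitors. Mnt had 0.06 (SE 0.17) and -0.21 (SE 0.25).

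**Figure D2:**
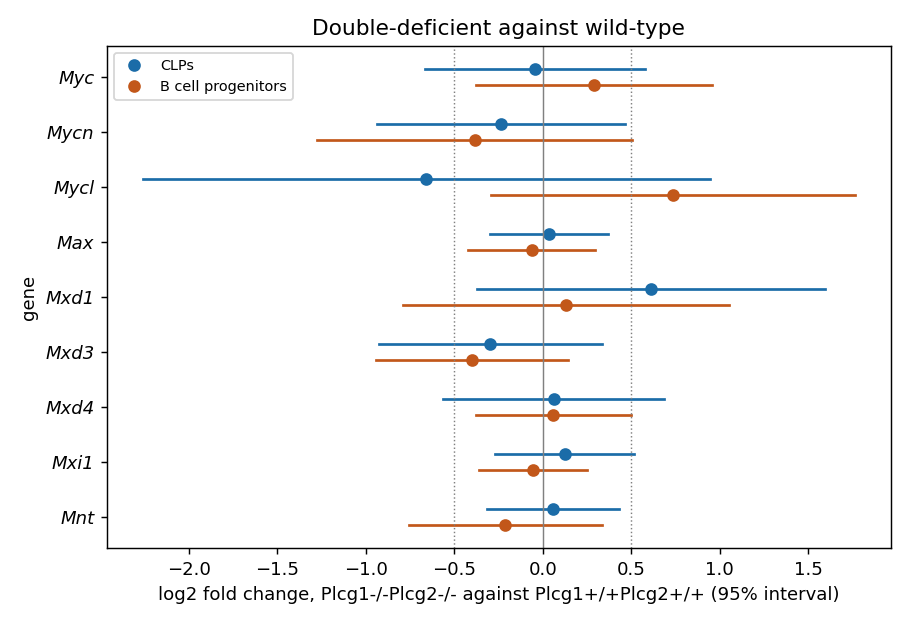
Log2 fold change of the double-deficient against the wild-type genotype (x axis) for each of the 9 genes, with 95% intervals from edgeR, in CLPs (blue) and B cell progenitors (orange). Dotted lines mark 0.5 in each direction. All 18 intervals include 0, and the widest is that of Mycl in CLPs, from -2.26 to 0.94.

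No member was called, at an adjusted p of 0.05 and an absolute log2 fold change of 0.5 by edgeR, in the 10 comparisons of genotypes within a population or in the 2 tests of a non-additive effect of both deficiencies. Across all genes, the double-deficient against wild-type comparison called 0.0921% in CLPs and 0.893% in B cell progenitors, and so 0 of 9 is near the background. In CLPs the share was 0.00658% for Plcg1-/-Plcg2+/+ and 0% for Plcg1+/+Plcg2-/- against wild-type, 0.0263% and 0.0526% for double-deficient against each of these, and 0.0197% for the non-additive effect. Among B cell progenitors the share was 0.06%, 0.0467%, 0.213%, 0.153% and 0.0267% in the same order. DESeq2 called 0 members as well, while over all genes it called more than edgeR did, 169 against 14 for double-deficient against wild-type CLPs, 444 against 134 for the same in B cell progenitors, and up to 802 (double-deficient against Plcg1-/-Plcg2+/+ B cell progenitors, 32 by edgeR). Of the 108 tests 1 reached an unadjusted p of 0.05 or less in edgeR, that of Mxd3 above, in a comparison where 9.93% of all genes did, and 1 did so in DESeq2. Over the members, the median log2 fold change of the double-deficient genotype was 0.04 in CLPs and -0.05 in B cell progenitors, beside -0.03 and -0.02 over all genes tested. The largest non-additive estimates were 0.77 (SE 0.41) for Mxd3 in CLPs and -1.03 (SE 0.58) for Mycn in B cell progenitors, with adjusted p of 0.862 and 0.451 by edgeR. With 6 libraries against 6, Plcg1-/- against Plcg1+/+ and Plcg2-/- against Plcg2+/+ also gave 0 called members in each population (for CLPs 0.0329% and 0.0132% of all genes, for B cell progenitors 0.0867% and 0.167%), a choice made after seeing the data. The difference between the effect of a genotype in B cell progenitors and in CLPs gave 0 of 9 members for each of the 3 mutant genotypes, with 0% of all genes called.

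The summed level per kb of Myc, Mycn and Mycl was set against that of the 5 repressors in each library. The ratio was 0.479 to 1.25 in wild-type and 0.551 to 0.882 in double-deficient CLPs, and 0.381 to 0.518 in wild-type and 0.410 to 0.999 in double-deficient B cell progenitors. Both ranges overlapped, as did those over all 12 libraries, with medians of 0.720 in CLPs and 0.489 in B cell progenitors.

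Between the 2 populations of wild-type mice, no member was called by edgeR, with 3.5% of all genes called. The same held in Plcg1-/-Plcg2+/+ (3.78%), in Plcg1+/+Plcg2-/- (3.21%) and in double-deficient mice (3.24%). Of these 36 tests 6 reached an unadjusted p of 0.05 or less in edgeR and 6 in DESeq2, which called 0 members, while 16.1%, 26.5%, 16.2% and 14.3% of all genes had such a p by edgeR in the 4 genotypes in the order above. The 6 were Mycl in wild-type mice (log2 fold change -1.54, SE 0.66), Myc (-0.69), Mxd1 (-1.09) and Mnt (-0.55) in Plcg1-/-Plcg2+/+, Mxd3 (0.74) in Plcg1+/+Plcg2-/- and Mnt (-0.69) in double-deficient mice. The adjusted p of the 6 ran from 0.118 to 0.247 by edgeR. This fit did not pair the libraries of a mouse. With the mouse as a block in edgeR, the unadjusted p was 0.0813 for Mycl, 0.0858 for Myc and 0.107 for Mxd1. Mnt in both genotypes and Mxd3 stayed under 0.05, and Mxd3 in wild-type mice came under it (0.0386). Without library 1 of wild-type CLPs, the log2 fold change of Mycl in wild-type mice was -0.18. Libraries of the 2 populations did not overlap for 0 of 9 members in wild-type (20.9% of all genes), for Mnt in Plcg1-/-Plcg2+/+ (23.5%), for Mycl and Mxd3 in Plcg1+/+Plcg2-/- (18.3%) and for Mnt and Mxd3 in double-deficient mice (21.3%), so that these counts are near the background.

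The difference was also averaged over the 4 genotypes, a contrast added after seeing the data, in which 14.4% of all genes were called. By edgeR, 41.7% of all genes had an unadjusted p of 0.05 or less there. At such a p 1 member was higher in B cell progenitors and 4 were lower. In edgeR 3 members were called, all lower in B cell progenitors, where 5.98% of all genes were called lower. They were Myc (log2 fold change -0.51, SE 0.16, adjusted p = 0.0204), Mycl (-0.92, SE 0.33, adjusted p = 0.0419) and Mxd1 (-0.68, SE 0.24, adjusted p = 0.0358). With the mouse as a block, which pairs both libraries of an animal, 0 members were called, since the adjusted p by edgeR became 0.0503 for Myc, 0.0714 for Mycl and 0.0632 for Mxd1. Mnt and Mxd3 kept adjusted p of 0.00789 and 0.0102 with the mouse as a block (0.00357 and 0.0177 without it, all by edgeR), but at log2 fold changes of -0.49 and 0.46 they stayed under the fold of 0.5. Mnt lay close to that fold. With each library left out and no block, it ran from -0.59 to -0.45 and was called in 18 of 24 fits. In those 24 fits the call changed in 9 for Mycl, 6 for Mxd1, 5 for Myc and 1 for Mxd3. The members called in the average also depended on single libraries: 0 were called without library 2 of Plcg1-/-Plcg2+/+ mice in either population or without the B cell progenitor library 2 of Plcg1+/+Plcg2-/-, 1 without library 1 of wild-type CLPs and 5 without library 2 of wild-type CLPs.

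Within mice, the members differed in how evenly the shift was shared. Mxd3 was higher in B cell progenitors than in CLPs in 11 of 12 mice, with log2 ratios from -0.02 to 1.32 (median 0.36), and Mnt, the widely expressed repressor, was lower in 11 of 12, from -1.41 to 0.27 (median -0.48). Mxd3 shares 105 of its 1327 exonic bases with Prelid1 on the opposite strand, and the share of ambiguous reads differed between the populations. The part of reads there in the shift of Mxd3 was not tested. Myc was lower in 10 of 12 mice, but its median log2 ratio was -0.16, and 3 mice lay below -1, library pair 1 of wild-type (-1.40) and library pairs 2 of Plcg1-/-Plcg2+/+ (-1.496) and Plcg1+/+Plcg2-/- (-1.65). Mycl and Mxd1 were each lower in 10 of 12 mice, and the same 4 mice lay below -1 for both, the 3 of Myc and library pair 2 of the double-deficient genotype (-1.12 for Mycl and -2.13 for Mxd1). Mycl ranged from -2.55 to 1.15, with 1 double-deficient mouse above 1, and Mxd1 from -2.42 to 0.62. For Max the ratios ran from -0.68 to 0.36 and for Mxi1 from -0.44 to 0.44, around medians of -0.07 and 0.05.

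**Figure D3:**
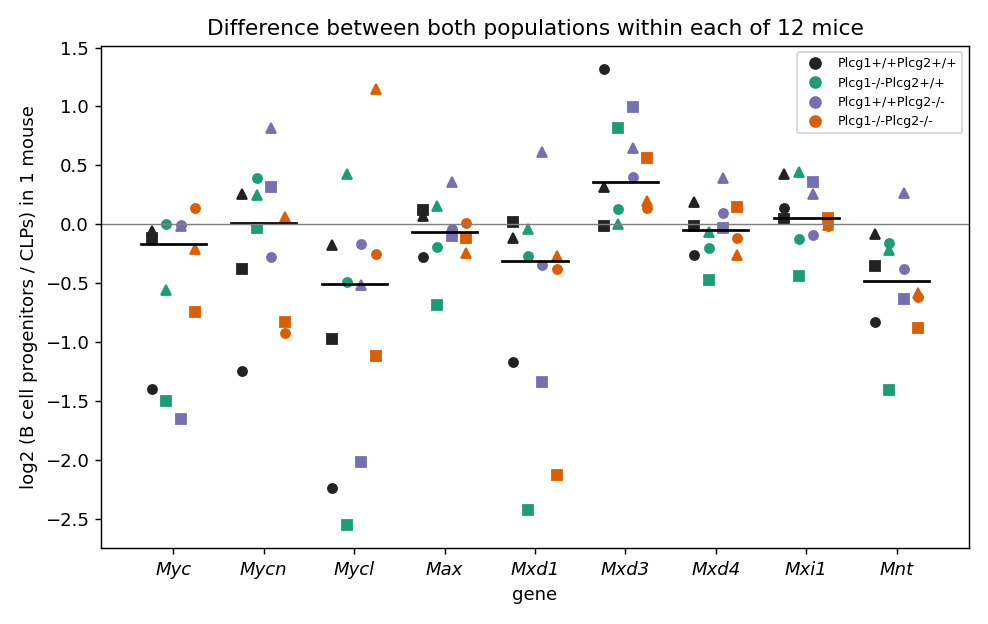
Log2 ratio of the normalized CPM in B cell progenitors to that in CLPs of the same mouse (y axis) for each of the 9 genes. Points are 12 mice, coloured by genotype and shaped by replicate number, and the bar is their median. Mxd3 lies above 0 in 11 mice and Mnt below 0 in 11, while for Myc, Mycl and Mxd1 a few mice lie far below the median.

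Other values moved with the population. The shares of reads on no feature and of ambiguous reads did not overlap between them, as given above. Granulocyte and monocyte markers did not separate the populations (0 of 7 called in the average), and 3 of 4 plasmacytoid dendritic cell markers were called lower in B cell progenitors, as was 1 of 5 macrophage markers (C1qa, -0.61, SE 0.21). Of all genes, 5.98% were called lower and 8.41% higher in the average. Of 6 CLP markers, Flt3 (-1.65, SE 0.47), a receptor of early progenitors, was called lower and Rag1 (0.68, SE 0.25), a recombinase of antigen receptor genes, higher. Proliferation genes were higher in part, with 6 of 30 called higher and 0 lower in the average, among them Ccna2 (0.94, SE 0.15), Nusap1 (0.76, SE 0.13) and Ccnb1 (0.68, SE 0.15), genes of the cell cycle and the spindle. The part of these differences in the shifts of Myc, Mycl, Mxd1, Mnt and Mxd3 was not tested. In sorted cells, fewer cells of a type and less RNA per cell cannot be told apart.

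Over single libraries, Mxd3 followed the proliferation genes. Its log2 level had a Pearson r of 0.92 (Spearman rho 0.81) with the mean of 30 proliferation genes over the 12 CLP libraries and 0.90 (rho 0.90) over the 12 B cell progenitor libraries, and 0.71 and 0.88 without the 2 libraries farthest from the median. Myc went the other way, with r of -0.56 (rho -0.74) in CLPs and -0.68 (rho -0.62) in B cell progenitors, and so did Mycl, with -0.74 (rho -0.90) and -0.60 (rho -0.57). Without the same 2 libraries r was -0.56 and -0.48 for Myc and -0.86 and -0.67 for Mycl. For Max and Mxi1 r lay between 0.20 and 0.46. These are descriptions over libraries that share normalization and cell mixture, and the 9 members differ in reads per library.

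**Figure D4:**
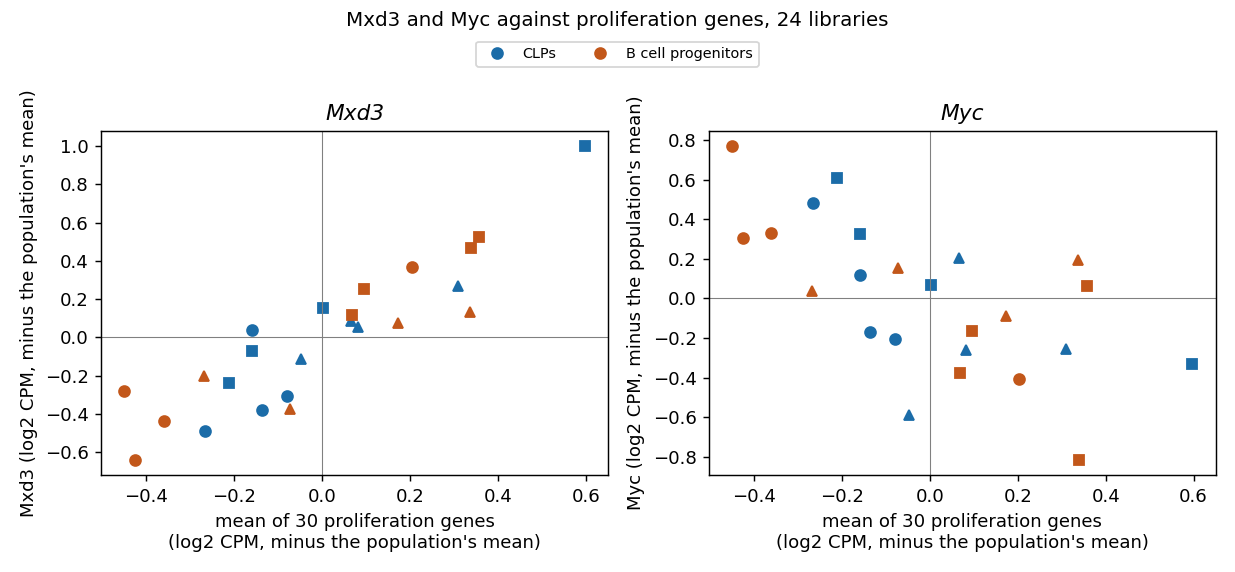
Log2 normalized CPM of Mxd3 (left) and Myc (right) on the y axis against the mean of 30 proliferation genes on the x axis, each minus the mean of its population, in 12 CLP (blue) and 12 B cell progenitor libraries (orange). Symbol shapes give the replicate number. Mxd3 is higher in libraries further right (r = 0.92 and 0.90) and Myc is lower (r = -0.56 and -0.68).

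Markers of other cells ordered the same libraries of B cell progenitors. Mxd3 had r of -0.90 (rho -0.92) with the summed granulocyte and monocyte markers and 0.78 (rho 0.75) with the summed B lineage markers. Myc had r of 0.85 (rho 0.86) and -0.65 (rho -0.74) with these sums. In CLPs the granulocyte and monocyte markers gave r of -0.33 for Mxd3 and -0.36 for Myc, while the B lineage markers gave 0.69 and -0.67. Mycl had r of -0.86 (rho -0.80) with the B lineage markers in CLPs and -0.42 (rho -0.37) in B cell progenitors. The granulocyte and monocyte sum was 1404 to 4474 in wild-type and 2632 to 6758 in double-deficient B cell progenitors, and all 7 genes had a positive log2 fold change there (0.59 to 1.55), with 0 of 7 called and an unadjusted p under 0.05 for S100a8 and S100a9. The sum also followed the replicate number among the mutant libraries of B cell progenitors, at 6758 to 7623 in those numbered 1, 1403 to 2632 in those numbered 2 and 4243 to 5304 in those numbered 3, and in CLPs at 7812 to 8655, 2425 to 3435 and 4822 to 6128. Cd22, 1 of 4 markers of later B cells tested, was called lower in double-deficient B cell progenitors (-1.62, SE 0.24). The part of these markers in the levels of Myc, Mycl and Mxd3 was not tested.

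The genes most like each member over the 24 libraries, after removal of the population means, were named by the highest Pearson r of log2 levels. For Mxd3 they were Asf1b (r = 0.94), a histone chaperone of replicating cells, Ccnf (0.92), which encodes cyclin F, and Ilf2 (0.91). For Myc they were Crtap, Acot7 and Saraf (0.90 each), for Mycl Pdzd4 (0.91), Runx2 and Ephb2 (0.90 each), and for Max Papd5, Ube2g2 and Rela (0.89 to 0.90). For Mxd1 they were Nlrp3 (0.90), the inflammasome sensor, Ier2 and Lilrb4a (0.88 each). For Mxd4 they were Rtfdc1 (0.89), Wdr6 and Fam219b (0.88 each), for Mxi1 Arhgef7 (0.87), Mtmr3 and Acly (0.82 each), and for Mnt Vps37b (0.83), Foxk1 and Efhd2 (0.80 each). For Mycn, the member with the fewest reads, they were Irf2bp2 (0.66), Gm4980 (0.65) and Rasl12 (0.64). Among the members themselves the highest r over the 24 libraries was 0.69 (Mxd1 and Mnt), followed by 0.64 (Myc and Mycl), and the lowest -0.58 (Mycl and Mxd3). Within single populations some pairs differed. For Myc and Mycl r was 0.84 in CLPs and 0.44 in B cell progenitors, and for Myc and Mxd4 0.63 and -0.42. For Mxd1 and Mnt it was 0.68 and 0.74, and for Mycl and Mxd3 -0.58 and -0.61.

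Other genes of the pathway were read from fixed lists. For the double-deficient against the wild-type genotype, 0 of 58 Myc-responsive growth genes, mostly factors of ribosome biogenesis, were called in either population. Their median log2 fold change was -0.11 in CLPs, with 47 of 58 negative, and -0.15 in B cell progenitors, with 51 of 58 negative, beside -0.03 and -0.02 over all genes. The Plcg1+/+Plcg2-/- genotype, against the same wild-type libraries, had medians of -0.16 (51 of 58 negative) and -0.15 (52 of 58), and Plcg1-/-Plcg2+/+ had -0.03 (36 of 58) and -0.08 (44 of 58). Their summed level was 10023 to 11745 normalized CPM in wild-type and 9878 to 10472 in double-deficient CLPs, and 10025 to 11800 in wild-type and 9310 to 10342 in double-deficient B cell progenitors, which overlap in both. Of 30 proliferation genes, 0 were called and 20 were lower in double-deficient B cell progenitors at an unadjusted p of 0.05 or less, where 12.3% of all genes had such a p in either direction. Their summed level there was 7456 to 11431 normalized CPM against 13117 to 13747 in wild-type, with no overlap. In Plcg1-/-Plcg2+/+ B cell progenitors the sum was 7901 to 11344, also wholly below wild-type, with 10 of 30 genes lower at such a p (9.93% of all genes in either direction) and a median log2 fold change of -0.41. In Plcg1+/+Plcg2-/- ones it was 8397 to 13963, with 0 of 30 (2.84% of all genes) and a median of -0.20. In CLPs 7 of the 30 had such a p in each of the 3 mutant genotypes, all lower. Over all genes, in either direction, the share was 7.52% for the double-deficient genotype, 2.85% for Plcg1-/-Plcg2+/+ and 3.92% for Plcg1+/+Plcg2-/-. The mutants share the wild-type libraries, among which the sum in CLPs was 7716 to 13083. None of the 4 genes of the Mlx arm and Mga (3 tested in B cell progenitors), 12 coactivators and Miz1, 17 Sin3 and Hdac corepressors and 9 genes of Myc protein turnover was called in the double-deficient comparison of either population.

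Between the populations, a few of these genes passed the test in all 4 genotypes. Stub1, which encodes a ubiquitin ligase, was at 50.6 ± 3.97 (SD, n = 3) normalized CPM in wild-type CLPs and at 113 ± 9.15 in wild-type B cell progenitors, with log2 fold changes from 1.08 to 1.15 over the 4 genotypes. Apex1, a DNA repair endonuclease, was at 28.2 ± 2.72 against 100.3 ± 12.2 (1.84 to 1.95), and Bysl, a ribosome assembly factor, at 44.9 ± 10.2 against 158 ± 24.8 (1.57 to 1.93). These 2 were the growth genes called higher in each genotype. Called lower were Cad, the first enzyme of pyrimidine synthesis (-0.68), and Rrp9, a ribosomal RNA processing factor (-0.63), in double-deficient mice and Ldha, lactate dehydrogenase A (-0.55), in Plcg1-/-Plcg2+/+, each in 1 genotype of 4, while Ccna2 (1.19) and Kif11 (0.87), a spindle motor, were the proliferation genes called higher, in Plcg1+/+Plcg2-/- mice. Over all 58 growth genes the median in wild-type mice was -0.15, beside -0.01 over all genes. Of the 1981 exonic bases of Stub1, 988 lie in Jmjd8 on the opposite strand, and of the 3854 of Bysl, 359 lie in Ccnd3 on the opposite strand, so that reads there cannot be told apart without strand. The shares of ambiguous reads and of reads on no feature differed between the populations, as given above. Their part in the differences of Stub1, Apex1 and Bysl was not tested. In the average over genotypes Usp36, a deubiquitinase of Myc (-0.56, SE 0.09), was called lower, as 1 of 9 turnover genes.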

How the data were processed

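The deposited values are raw counts of reads per gene symbol, 1 table per library. The authors purified poly(A) RNA, aligned reads to mm10 with STAR 2.5.0a through BaseSpace and tested with DESeq2. The counting program and its strand setting are not given in the sources used here. Reads on no feature and ambiguous reads, 2 lines per table, were left out. Counts were tested with edgeR 4.0.16 (TMM, filterByExpr, glmQLFit, glmQLFTest, Benjamini-Hochberg over all genes tested) in R 4.3.3, in 1 fit per population for genotypes (15209 genes in CLPs, 15001 in B cell progenitors) and in 1 fit of 24 libraries for differences between populations (17212 genes). A call needed an adjusted p of 0.05 or less together with a log2 fold change of 0.5 or more in either direction. The levels are on the scale of the 24-library fit. Per kb levels use exonic length from GENCODE transcripts with a RefSeq accession (GRCm38, the same assembly as mm10). Log2 levels use a prior count of 2.

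The members and gene lists were chosen with earlier results of these data known. All 9 members were named in each comparison, and of other lists those called, at most 3 per list and direction with the largest change, save 1 result that is not reported here. For each member the 3 genes with the highest r were named as most like it. A chi-square test between replicate libraries gave 9.62 or more for each degree of freedom, so none is a copy. The replicate numbers come from the labels. Both libraries of 1 mouse share an animal and are paired by design (mean r 0.114, -0.35 to 0.53). Alternatives were RLE size factors, no filter, DESeq2 1.42.0, adjusted p alone, a replicate block, thinned counts, the 2 groups alone and each library left out. The test was checked on simulated counts with 200 known changes, for double-deficient against wild-type. In CLPs it called 18% of log2 changes of 1 and 71% of changes of 2, with 4 false calls. In B cell progenitors it called 32% and 71%, with 1 false call. Many changes of 1 thus were missed. Figures were drawn with matplotlib 3.10.9.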

Additional observations from a re-analysis of the deposited data

How the results depend on the processing

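With 3 mice per group, the 95% intervals of the double-deficient against wild-type log2 fold change were as wide as -2.26 to 0.94 (Mycl in CLPs), so a count of 0 leaves room for changes past 0.5. The smallest library, of Plcg1+/+Plcg2-/- B cell progenitors, held 1479582 reads on genes and 14 of Mycn.

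In the 19 comparisons planned at the start, 0 members were called under RLE size factors, no filter, DESeq2, adjusted p alone, the replicate block, thinned counts and with each library left out, and in the 10 comparisons of genotypes also with the 2 groups alone. The count over all genes was less steady. For double-deficient against wild-type it went from 14 to 50 with the replicate block, to 44 without wild-type replicate 1 and to 0 without double-deficient replicate 3 in CLPs, and from 134 to 550 with the block and to 50 without double-deficient replicate 3 in B cell progenitors. With the replicate number as a block, or the mouse for differences between populations, 10 of 171 member tests had an unadjusted p of at most 0.05 by edgeR, against 7 without it, and 0 were called in both. Such tests rose from 1 to 5 of 90 in comparisons of genotypes and from 0 to 1 of 18 for the non-additive effect. Between the populations they fell from 6 to 4 of 36. The share of all genes with such a p under the blocks is not given here. Calls over all genes also rose with the replicate block, as given above. These counts thus are not read as a result about the members. Deviations of same-numbered libraries of different genotypes correlated at a mean r of 0.225 in CLPs (-0.22 to 0.645) and 0.0971 in B cell progenitors (-0.517 to 0.715), against -0.113 and -0.0492 for other numbers. In CLPs 10 of 12 and in B cell progenitors 8 of 12 libraries correlated best with one of their own number. Same-numbered libraries thus were more alike in the mean, with wide ranges. The main fits did not use the numbers, whereas the replicate block did. The labels do not say whether the numbers mark shared handling. In the added average over genotypes, 3 members were called, against 5 by adjusted p alone, 0 with the mouse as replicate block, 1 (Mxd1) with thinned counts and between 0 and 5 with each library left out. Low p-values were common in that average, where 41.7% of all genes had an unadjusted p of 0.05 or less by edgeR.

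Several changes turned their direction, none of them called. With thinned counts the log2 fold change of the double-deficient genotype in CLPs became -0.0027 for Max and -0.0065 for Mnt, and the average over genotypes became -0.047 for Mxi1 and 0.25 for Mycn. With each library left out, the double-deficient log2 fold change in CLPs ran from -0.17 to 0.26 for Myc, from -1.07 to 0.69 for Mycl, from -0.039 to 0.16 for Max, from -0.61 to 0.16 for Mxd3, from -0.084 to 0.20 for Mxd4 and from -0.042 to 0.16 for Mnt. In B cell progenitors it ran from -0.035 to 0.47 for Myc, from -0.20 to 0.032 for Max, from -0.29 to 0.49 for Mxd1, from -0.12 to 0.20 for Mxd4, from -0.16 to 0.041 for Mxi1 and from -0.32 to 0.051 for Mnt. The average over genotypes ran from -0.027 to 0.084 for Mxi1. The cause was not tested.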
